A study of Rattus norvegicus with 4 samples.

Results

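Transcripts of 39 genes that copy DNA and supply its building blocks were followed in HSC-T6 cells, a rat hepatic stellate cell line, with and without ginsenoside Rk1. The genes were taken by symbol from the deposited count table of 32883 genes, and each stood on a single row. They were listed by function, with earlier results of these data known. The 4 libraries were 2 of untreated cells and 2 of cells under treatment with GRK1, the label for ginsenoside Rk1, a saponin of processed ginseng. Every value below therefore rests on n = 2 libraries per group. The labels name no dose, duration, vehicle or genetic change, and all libraries come from the same line, which was immortalised with the large T antigen of SV40. That antigen binds the retinoblastoma family of proteins, so the brake on replication genes in this line is not that of a primary stellate cell. Whether the 2 libraries of a group are separate cultures is not stated. The p-values therefore reflect the scatter of these 4 libraries alone, and that scatter could be technical.

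Before a cell divides, origins of replication are licensed. The origin recognition complex, with Cdc6 and Cdt1, loads a ring of 6 MCM proteins on DNA. In S phase Cdc45 and the GINS complex join the ring to make the active helicase, primase and polymerases copy the strands, and a sliding clamp holds the polymerases in place. Ribonucleotide reductase, thymidylate synthase and thymidine kinase provide the deoxynucleotides. Most of these genes are targets of E2F transcription factors, which the retinoblastoma family restrains, and their transcripts rise as cells pass from G1 into S phase. Stellate cells proliferate when they turn into myofibroblasts in injured liver, and this machinery is switched on with them.

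Library totals ranged from 18008586 to 20430930 counts, and 12316 genes were abundant enough to be tested, including all 39. Levels are given as CPM, a gene's share of its library's counts, scaled so that libraries can be compared. Of 10 stellate cell markers 8 were tested and 2, Lrat and Rgs5, were at 0 counts throughout, where the floor of 3 counts is 0.167 CPM in the shallowest library. The 10 summed to between 17789 and 18836 CPM in untreated cells, nearly all of it Col1a1, Col3a1 and Vim, and to between 11929 and 12017 CPM with Rk1. Of the 8 tested 4 fell, the collagens Col1a1 and Col3a1 and the low Acta2 and Gfap, with a median of -0.45 over the 8. The 6 hepatocyte markers summed to at most 0.330 CPM in any library. The 6 leukocyte markers, nearly all Cd14 with Ptprc and Adgre1 at 0 counts, summed to 43.8 to 46.3 CPM untreated and 55.5 to 56.2 CPM with Rk1. The 5 epithelial markers, nearly all Sox9, summed to 7.54 to 9.45 CPM and 2.80 to 2.95 CPM, and the endothelial markers to at most 0.988 CPM. The part of all these marker changes, stellate included, in the results was not tested.

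Most of the 39 genes were a little lower after Rk1, and few by more than the spread between libraries allowed to call. In edgeR's quasi-likelihood test, at a Benjamini-Hochberg adjusted p under 0.05 over all genes tested, 9 genes fell, 1 rose and 29 were not called. Among all genes tested 10.5% fell and 11.5% rose, 22.0% in all, against 23.1% and 2.56% of the 39. The difference between these shares was not tested. The genes that fell were Tk1, Mcm10, Rfc3, Cdc45, Mcm7, Fen1, Rrm1, Gins3 and Rfc4, and Rrm2 rose. The falls were small, from 12.7% for Rfc4 to 21.0% for Tk1. Only Tk1 and Mcm10 fell by at least 0.32 on the log2 scale, 2 of 39 against 5.89% of all genes tested, and 0 rose by as much, against 5.89%. The fitted change was below 0 for 30 of the 39, or 76.9%, against 49.7% of all genes. The median log2 fold change of the 39 was -0.11, where all genes tested had a median of 0.00112. Both Rk1 libraries lay below both untreated libraries for 26 genes, or 66.7%, against 30.9% of all genes tested. They lay above for 5 genes, against 32.1% of all genes. Groups that did not overlap were thus common among all genes tested. The summed level of the 39 genes was 6884 and 6927 CPM in the untreated libraries and 6595 and 6530 CPM with Rk1. In bulk libraries, fewer cells in S phase and less of each transcript per cell cannot be told apart.

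**Figure D1:**
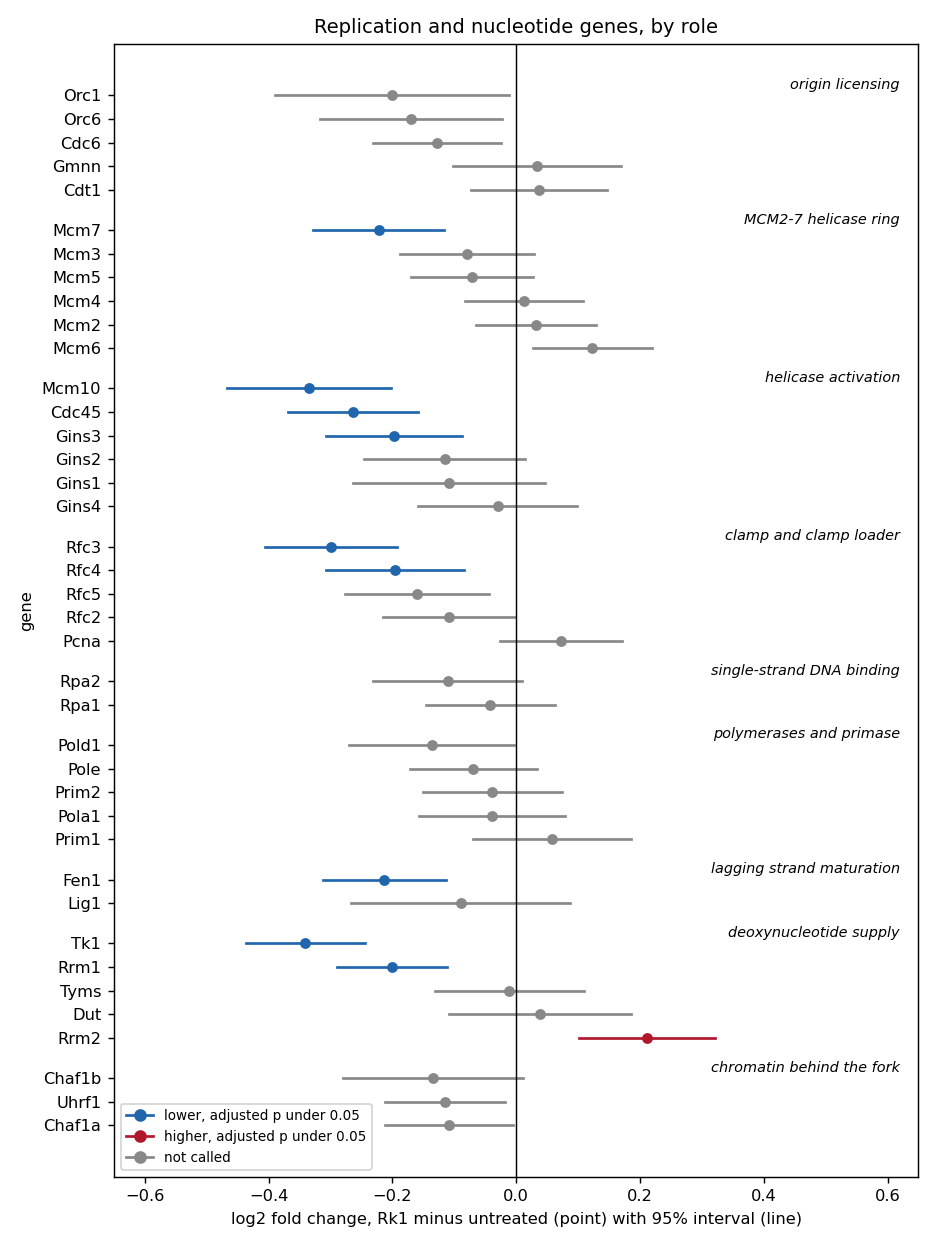
Log2 fold change, Rk1 minus untreated, of each of the 39 genes (x axis), grouped by role (y axis). Points are fitted values, lines their 95% intervals, and colour marks the 9 genes called lower and the 1 called higher. Every helicase activation gene lies left of 0, and Rrm2 lies apart from Rrm1 and Tk1.

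The changes can be set against the scatter between libraries of a group. Over the 39 genes, the untreated libraries differed from each other by a median of 0.03 on the log2 scale and the Rk1 libraries by 0.06. The group means differed by a median of 0.11. For 28 of the 29 genes not called, the 95% interval of the change lay between -0.32 and 0.32 on the log2 scale. The exception was Orc1, whose interval ran from -0.39 to -0.01 on the log2 scale.

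**Figure D2:**
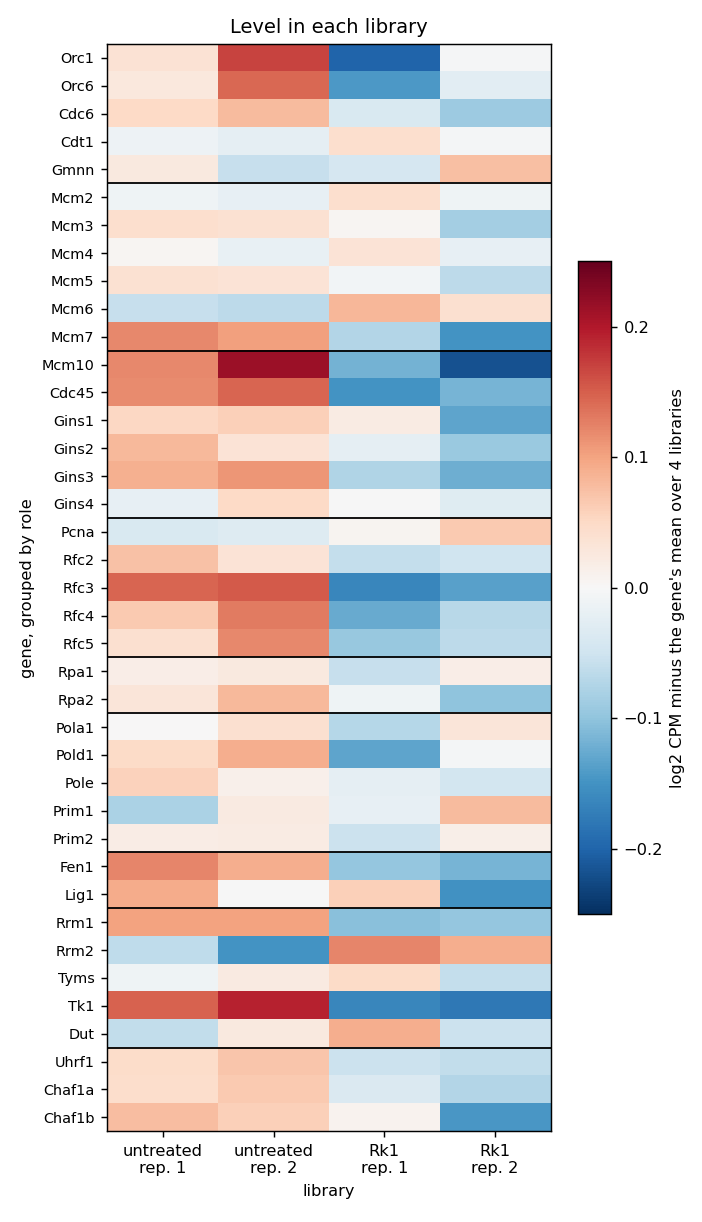
Level of each gene (rows, grouped by role) in each of the 4 libraries (columns), as log2 CPM minus the gene's mean over the 4 libraries. Red is above and blue below that mean. Tk1, Rfc3 and Mcm10 are red in both untreated and blue in both Rk1 columns, Rrm2 shows the reverse, and Mcm4, Tyms and Dut show no common order.

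None of the 5 licensing genes was called. Cdc6, an ATPase that helps load the MCM ring, stood at 181 and 185 CPM in untreated cells and at 170.3 and 164 CPM with Rk1 (log2 fold change -0.13 ± 0.04 SE, adjusted p = 0.079). Its groups did not overlap, yet the difference did not pass the test. Orc1, the largest ATPase of the origin recognition complex, was at 41.0 and 45.0 CPM untreated and at 34.8 and 39.9 CPM with Rk1 (-0.20 ± 0.08, adjusted p = 0.12). It was called without Rk1 replicate 2 (adjusted p = 0.039). Orc6, the smallest subunit of that complex, had values of 63.5 and 68.9 against 56.4 and 61.2 CPM (-0.17 ± 0.06, adjusted p = 0.096). Cdt1, the licensing factor, and Gmnn, whose protein geminin binds and inhibits it, both had intervals that spanned 0, from -0.07 to 0.15 and from -0.10 to 0.17.

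Of the 6 subunit genes of the MCM ring, which the cell assembles in equal number, Mcm7 alone was called. It fell, as did 10.5% of all genes tested. Mcm7 (ENSRNOG00000001349, chromosome 12 at 19306607 to 19314016 in Rnor_6.0, minus strand) was at 250.1 and 247 CPM in untreated cells and at 219 and 208 CPM with Rk1. It fell by 0.22 ± 0.05 on the log2 scale (adjusted p = 0.013), and the groups did not overlap. Leaving out untreated replicate 1 (adjusted p = 0.051) or Rk1 replicate 2 (0.064) ended the call. Mcm6 stood on the other side, at 309 and 308 CPM untreated and 341 and 331 CPM with Rk1, and did not pass (0.12 ± 0.04, adjusted p = 0.072). Its interval, 0.03 to 0.22, did not meet that of Mcm7, -0.33 to -0.12. Mcm6 and Mcm7 had the highest and lowest fitted changes of the 6. The intervals are not adjusted for the number of genes, and the difference between the genes was not tested. Mcm2, Mcm3, Mcm4 and Mcm5 had changes between -0.08 and 0.03, and the interval of each spanned 0. The ring's summed level was 2172 and 2155 CPM untreated and 2180.3 and 2093 CPM with Rk1, groups that overlapped. The Mcm7 gene also carries the hairpins of Mir93, Mir25 and Mir106b on the same strand, and these rows held 2, 29 and 4 counts over all libraries.

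Promoter sequences were read for letters that the genes share. RefSeq windows on GRCr8, from 250 bases before to 50 after a gene's start, were found for 34 of the 39 genes, in 37 windows because some genes have several starts. E2F-type sites were searched on both strands as TTTCGCGC, TTTGGCGC or TTTCCCGC, the CCAAT box as CCAAT, and the cell cycle homology element as TTTGAA. An E2F-type site stood in 15 of the 37 windows (40.5%), against 1.72% of 33469 windows of all genes. A CCAAT box stood in 24 windows (64.9%, against 37.5%) and TTTGAA in 3 (8.11%, against 18.3%). These are matches of letters, not measured binding. Of the genes called in the test, 3 of the 9 with a window held an E2F-type site. Of those not called, 12 of 25 did. The difference was not tested, and other spellings of the site were not searched. The letters TTTGGCGG, on either strand, stand for example in windows of Cdc45 and Mcm10, which fell, and of Chaf1a and Dut, which were not called. None of these windows counts as holding a site here. The windows of 2 genes that fell, Mcm7 and Rfc3, and of 2 ring genes that were not called, Mcm6 and Mcm2, are printed so that the same sites can be seen beside different changes. They lie at chr12:22163129-22163428 (minus strand), chr12:5836318-5836617 (plus strand), chr13:42404303-42404602 (minus strand) and chr4:122918045-122918344 (minus strand). Each runs 5′ to 3′ on the gene's strand, with E2F-type sites and CCAAT boxes of either strand in capitals.
Mcm7: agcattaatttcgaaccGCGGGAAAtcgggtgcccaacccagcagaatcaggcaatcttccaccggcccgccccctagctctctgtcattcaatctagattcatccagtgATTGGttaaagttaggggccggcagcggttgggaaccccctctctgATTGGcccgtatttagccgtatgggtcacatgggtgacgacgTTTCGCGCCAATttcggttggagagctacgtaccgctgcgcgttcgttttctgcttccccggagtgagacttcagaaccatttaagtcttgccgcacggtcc
Rfc3: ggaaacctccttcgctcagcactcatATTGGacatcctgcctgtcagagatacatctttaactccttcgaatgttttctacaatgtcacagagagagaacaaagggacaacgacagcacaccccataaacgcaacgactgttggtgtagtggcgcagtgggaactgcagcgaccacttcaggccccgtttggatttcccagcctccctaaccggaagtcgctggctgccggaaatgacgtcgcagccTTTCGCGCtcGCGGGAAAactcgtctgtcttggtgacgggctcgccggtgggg
Mcm6: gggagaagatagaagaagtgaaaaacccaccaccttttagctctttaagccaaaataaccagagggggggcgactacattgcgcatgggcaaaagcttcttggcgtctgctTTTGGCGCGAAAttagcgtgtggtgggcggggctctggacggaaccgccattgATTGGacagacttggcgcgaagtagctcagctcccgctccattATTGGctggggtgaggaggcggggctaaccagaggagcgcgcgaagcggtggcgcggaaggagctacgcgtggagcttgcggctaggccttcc
Mcm2: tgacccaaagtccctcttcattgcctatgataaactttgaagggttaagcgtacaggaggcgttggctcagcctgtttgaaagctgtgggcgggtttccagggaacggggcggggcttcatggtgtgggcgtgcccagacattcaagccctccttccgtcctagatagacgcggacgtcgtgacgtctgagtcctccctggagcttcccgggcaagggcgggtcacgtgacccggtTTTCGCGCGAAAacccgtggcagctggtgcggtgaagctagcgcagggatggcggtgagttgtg
In the Mcm7 window an E2F-type site runs into a CCAAT box, and in those of Mcm6 and Mcm2 a pair of E2F-type sites on opposite strands overlaps. Such sites thus stood both in genes that fell and in genes not called.

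Of the 6 genes whose products turn the loaded ring into a moving helicase, 3 fell and the others were not called. The share of all genes tested that fell was 10.5%, and the difference was not tested. All 6 fitted changes lay below 0, against 49.7% of all genes tested. Both Rk1 libraries lay below both untreated libraries for 5 of them, against 30.9% of all genes. Mcm10 (ENSRNOG00000017981, chromosome 17 at 77224112 to 77246478, plus strand), a scaffold needed to start unwinding and no part of the ring despite its name, was at 92.4 and 98.6 CPM untreated. With Rk1 it was at 78.3 and 73.1 CPM, a fall of 0.33 ± 0.06 (adjusted p = 0.0063). Cdc45 (ENSRNOG00000050071, chromosome 11 at 86329012 to 86358453, plus strand), which bridges the ring to GINS, was at 114 and 116 CPM untreated and at 94.6 and 96.8 CPM with Rk1. It fell by 0.26 ± 0.04 (adjusted p = 0.0063). For both genes the groups did not overlap, and the call held when any 1 library was left out, the adjusted p over all alternatives reaching 0.027 for Mcm10 and 0.032 for Cdc45. Gins3 (ENSRNOG00000011863, chromosome 19 at 9835057 to 9843673, minus strand) was at 69.8 and 70.8 CPM untreated and 62.3 and 60.3 CPM with Rk1, a fall of 0.20 ± 0.05 (adjusted p = 0.023). That call was lost without any 1 of the libraries (adjusted p = 0.054 to 0.105) and by DESeq2 (0.14). The other GINS genes did not pass, with changes of -0.12 for Gins2, -0.11 for Gins1 and -0.03 for Gins4. Cdc45 spans the Cldn5 gene on the opposite strand, which had 0 counts in all libraries.

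Of the 5 clamp and clamp loader genes among the 39, Rfc3 and Rfc4 fell, where 10.5% of all genes tested fell. Pcna, the sliding clamp and the most abundant of the 39 transcripts per kilobase of exon, was at 332 and 333 CPM untreated and at 342 and 356 CPM with Rk1. It was not called (0.07 ± 0.04, adjusted p = 0.27), and its interval ran from -0.03 to 0.17. The loader subunits open the clamp around DNA. The 4 small subunits among the 39 all had fitted changes below 0, and both Rk1 libraries lay below both untreated libraries for each. Among all genes tested these shares were 49.7% and 30.9%. The large subunit Rfc1, which is not among the 39, was at 133.7 and 134.3 CPM untreated and 127 and 140.2 CPM with Rk1, groups that overlapped (adjusted p = 0.97). Rfc3 (ENSRNOG00000001088, chromosome 12 at 1460538 to 1471357, plus strand) was at 82.8 and 83.3 CPM untreated and at 66.8 and 68.1 CPM with Rk1. It fell by 0.30 ± 0.05 (adjusted p = 0.0039) and was called under every alternative run. Rfc4 (ENSRNOG00000001816, chromosome 11 at 81358592 to 81373043, plus strand) was at 146 and 153 CPM untreated and at 128 and 133 CPM with Rk1, a fall of 0.20 ± 0.05 (adjusted p = 0.026). It was not called without untreated replicate 2 (adjusted p = 0.107) or Rk1 replicate 1 (0.119). Rfc5 (-0.16 ± 0.05, adjusted p = 0.059) and Rfc2 (-0.11 ± 0.05, adjusted p = 0.13) did not pass.

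None of the 5 polymerase and primase genes among the 39 was called, and their changes lay between -0.14 and 0.06. Pold1, the catalytic subunit of polymerase delta, had the smallest adjusted p of them, with 69.0 and 71.1 CPM untreated and 60.9 and 66.5 CPM with Rk1 (-0.14 ± 0.06, adjusted p = 0.13). Pole, the catalytic subunit of polymerase epsilon, was at 163 and 158 against 154 and 152 CPM (adjusted p = 0.30). For Pola1, which extends primers, and Prim1, the catalytic primase subunit, the groups overlapped. Outside the 39, a further subunit of polymerase alpha and of delta each fell, Pola2 by 0.24 ± 0.05 (adjusted p = 0.016) and Pold2 by 0.20 ± 0.05 (adjusted p = 0.022). Both were named after their values were seen, and 32 of the 40 further replication factors tested were not called. Pola2 was not called without untreated replicate 2 (0.052) or Rk1 replicate 1 (0.077), nor Pold2 by DESeq2 (0.17) or with any 1 library left out (0.067 to 0.137). Of the single-strand binding protein, the genes of the larger subunits Rpa1 and Rpa2 did not pass. Rpa2 was at 98.1 and 102 CPM untreated and 95.3 and 89.5 CPM with Rk1 (-0.11 ± 0.05, adjusted p = 0.17), and the value for Rpa1 was -0.04 ± 0.04 (adjusted p = 0.55). Rpa3, the smallest subunit and not among the 39, was at 72.6 and 72.8 CPM untreated and 80.5 and 81.0 CPM with Rk1 and rose by 0.15 ± 0.04 (adjusted p = 0.049). Of the 13 alternatives only 3 called that rise. It was lost by DESeq2 (adjusted p = 0.30), limma-voom, RLE scaling, both other filters and the stricter threshold, and with any 1 library left out.

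On the lagging strand, Fen1 (ENSRNOG00000020531, chromosome 1 at 226251518 to 226255886, minus strand), the nuclease that trims flaps from Okazaki fragments, was at 176 and 172 CPM untreated. With Rk1 it was at 151 and 149 CPM, a fall of 0.21 ± 0.04 (adjusted p = 0.012) with no overlap between groups. It was not called without untreated replicate 1 (adjusted p = 0.059) or Rk1 replicate 2 (0.053). A gene of 507 bases overlaps Fen1 on the opposite strand and held 74 counts in all. Reads in the shared bases could belong to either gene, and how many were divided or dropped is not known. Lig1, the ligase that seals the fragments, was at 60.4 and 56.7 CPM untreated and 59.1 and 51.0 CPM with Rk1, and the groups overlapped (-0.09 ± 0.08, adjusted p = 0.44). The table also lists a DNA ligase 1-like gene with 373 counts in all, which could share reads with Lig1, so its value is uncertain.

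Deoxynucleotide enzymes held both the largest fall and the only rise among the 39. Tk1 (ENSRNOG00000047314, chromosome 10 at 106817601 to 106828884, minus strand), the cytosolic kinase that salvages thymidine in S phase, was at 392 and 405 CPM in untreated cells. With Rk1 it was at 316 and 313 CPM, and it fell by 0.34 ± 0.04 (adjusted p = 0.0015), 1.27-fold. The groups lay far apart for their spread, and the call held under every alternative run (highest adjusted p = 0.0070). Rrm1 (ENSRNOG00000045752, chromosome 1 at 167538263 to 167562688, plus strand), the large subunit of ribonucleotide reductase that carries its active and regulatory sites, was at 583.3 and 583.5 CPM untreated. It stood at 507 and 509 CPM with Rk1, a fall of 0.20 ± 0.04 (adjusted p = 0.010) that was called without any 1 library (adjusted p = 0.035 to 0.048). Rrm2 (ENSRNOG00000054286, chromosome 6 at 43884678 to 43889515, plus strand), the small subunit that holds the tyrosyl radical and limits the enzyme in S phase, went the other way. It was at 235 and 221 CPM untreated and at 267 and 261 CPM with Rk1, a rise of 0.21 ± 0.05 (adjusted p = 0.018). The groups did not overlap, but leaving out untreated replicate 2 (adjusted p = 0.112) or Rk1 replicate 1 (0.073) ended the call. Tyms, thymidylate synthase, was at 132 and 135 CPM untreated and 138 and 128 CPM with Rk1. Dut, which removes dUTP, was at 65.9 and 70.0 CPM untreated and 73.3 and 66.2 CPM with Rk1. Both overlapped between groups, with intervals of -0.13 to 0.11 and -0.11 to 0.19.

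Ratios of genes within an enzyme or complex were compared per kilobase of exon, for pairs chosen after their values were seen. Rrm1 to Rrm2 stood at 0.928 and 0.987 in the untreated libraries and at 0.709 and 0.729 with Rk1. The ratio of Mcm7 to Mcm6 was 0.949 and 0.943 untreated and 0.754 and 0.737 with Rk1. Rfc3 to Rfc2 gave 1.14 and 1.18 against 1.01 and 1.02. In these 3 pairs, and in Mcm7 to Mcm2 and Pola1 to Prim1, both Rk1 libraries lay below both untreated libraries. Gmnn to Cdt1 stood at 2.18 and 2.07 untreated and 2.002 and 2.24 with Rk1, groups that overlapped. Since the pairs were chosen on their values, these ratios are a description. With 2 libraries a group an exact two-sided permutation test cannot go below p = 0.333, so no test was made on these ratios.

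**Figure D3:**
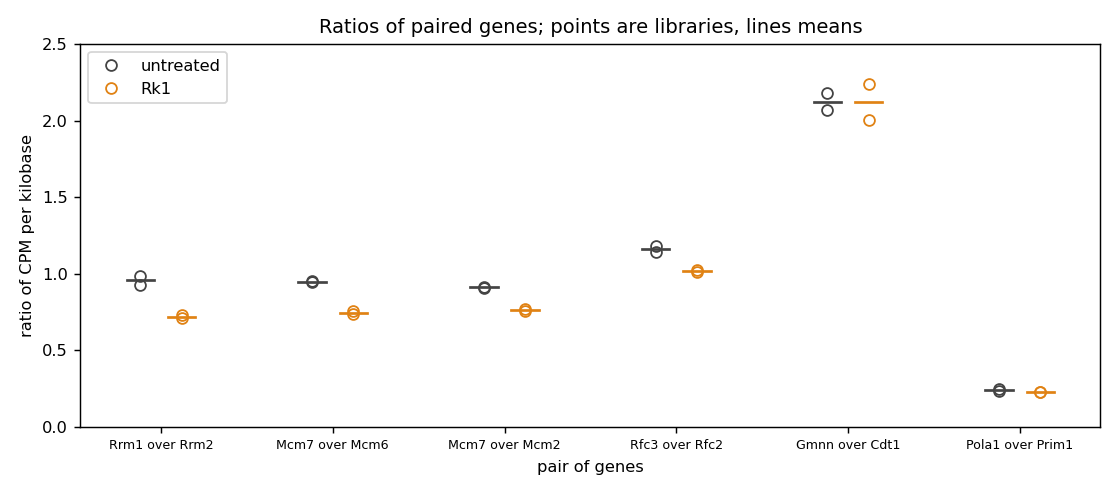
Ratio of CPM per kilobase of exon (y axis, from 0) for 6 pairs of genes (x axis). Circles are libraries and lines the means of 2. The Rrm1 to Rrm2 ratio lies at 0.928 and 0.987 untreated and at 0.709 and 0.729 with Rk1, and Gmnn to Cdt1 overlaps between groups.

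Of the 3 genes among the 39 that restore chromatin behind the fork, none passed. Uhrf1, which recruits the maintenance DNA methyltransferase, was at 208 and 211 CPM untreated and at 194 and 193 CPM with Rk1 (-0.12 ± 0.04, adjusted p = 0.088). Chaf1a and Chaf1b, subunits of the histone chaperone that loads new nucleosomes, had values of -0.11 ± 0.04 (adjusted p = 0.12) and -0.13 ± 0.06 (adjusted p = 0.17). For all 3 genes both Rk1 libraries lay below both untreated libraries, as for 30.9% of all genes tested. Outside the 39, Ssrp1, a subunit of the histone chaperone FACT, fell by 0.15 ± 0.04 (adjusted p = 0.044), a call lost with any 1 library left out (0.0501 to 0.186).

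Levels per kilobase of exon spanned a wide range within each role. In untreated cells Pcna led with 286 CPM per kilobase, followed by Rrm2 at 195, Rrm1 at 186 and Mcm4 at 181. Gins2 was lowest at 10.2, below Orc1 at 16.8 and Pold1 at 16.9, a neighbouring pair whose libraries overlapped. Within the MCM ring, Mcm4 stood highest and Mcm3 lowest at 86.9. With Rk1 Prim1, at 187 CPM per kilobase, and Mcm4, at 183, stood above Rrm1 at 162, which they had not done in untreated cells. The exon length is the table's, so a gene annotated with long or extra exons appears lower than its transcript is.

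**Figure D4:**
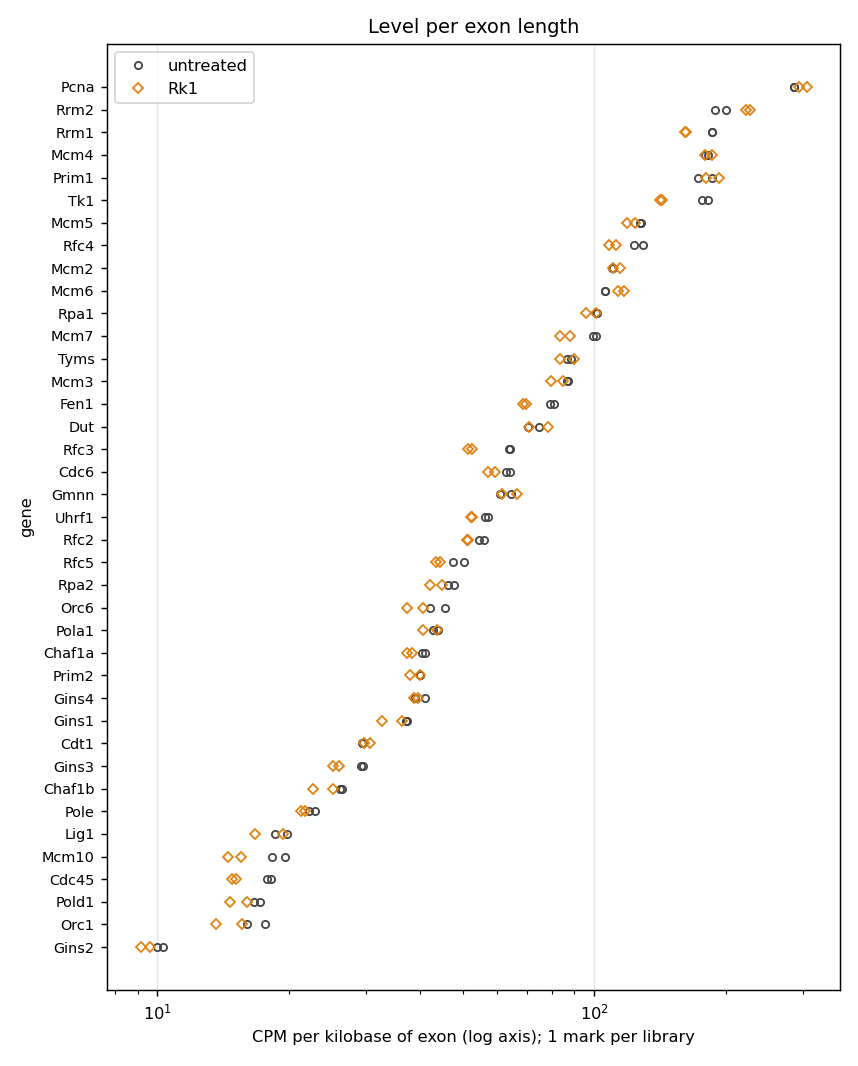
Level of each of the 39 genes in CPM per kilobase of exon (x axis, log scale), ordered by the untreated mean (y axis). Circles are untreated and diamonds Rk1 libraries, 1 mark each. The order runs from Gins2 at 10.2 to Pcna at 286, and for most genes the distance between groups is small beside the distance between genes.

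Further genes of replication and nucleotide supply outside the 39 were read from the same fit. Of 86 tested, 23 fell (26.7%) and 3 rose (3.49%), with a median of -0.05. Among all genes tested 10.5% fell and 11.5% rose. Differences of the further lists from these shares were not tested. The fallen count was 12 by DESeq2 and between 10 and 14 when any 1 library was left out. Among 40 further replication factors 7 fell (17.5%) and Rpa3 rose, a call with the limits given above. Mtbp, a partner of the origin-firing factor treslin, fell by 0.49 ± 0.05 (adjusted p = 0.0010) from 163 and 176 to 117 and 124 CPM. Pclaf, a small protein that binds PCNA, fell by 0.49 ± 0.05 (adjusted p = 0.0011) from 144 and 146 to 108 and 98.9 CPM. Atad5, which unloads the clamp, fell by 0.22 ± 0.05 (adjusted p = 0.015). Leaving out either untreated library (adjusted p = 0.054 and 0.051) or Rk1 replicate 1 (0.075) ended the Atad5 call. The fitted changes of Mtbp and Pclaf were larger than any among the 39, a difference that was not tested, and both calls held under every alternative run.

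Of 16 further deoxynucleotide and thymidylate genes, 7 fell and 1 rose. For this and the next lists, 10.5% of all genes tested fell and 11.5% rose. Samhd1, the enzyme that degrades deoxynucleotides, fell by 0.80 ± 0.10 (adjusted p = 0.0018), from 83.6 and 68.8 to 40.9 and 46.5 CPM. Nme1, a nucleoside diphosphate kinase, fell by 0.33 ± 0.05 (adjusted p = 0.0037), although reads of its close relative Nme2, which stood at 395 and 376 against 310 and 271 CPM, could be counted with it. Slc29a1, a nucleoside transporter, rose by 0.45 ± 0.07 (adjusted p = 0.0048) from 33.7 and 30.7 to 42.2 and 45.8 CPM. Of 19 purine and pyrimidine synthesis genes 8 fell and Aprt rose by 0.22 ± 0.06 (adjusted p = 0.030), a call lost by DESeq2 (0.17) and when either untreated library (0.075 and 0.173) or Rk1 replicate 1 (0.123) was left out. Prps1, which makes the ribose donor, fell by 0.26 ± 0.05 (adjusted p = 0.0081). Pfas fell by 0.21 ± 0.04 (adjusted p = 0.013) and Gart by 0.22 ± 0.05 (adjusted p = 0.015), both enzymes of purine synthesis. Pfas was not called without untreated replicate 1 (adjusted p = 0.059) or Rk1 replicate 1 (0.069), nor Gart without untreated replicate 1 (0.062), without Rk1 replicate 2 (0.066) or by DESeq2 (0.069). Of 11 genes of chromatin assembly and maintenance methylation, Nasp, a histone chaperone, fell by 0.24 ± 0.05 (adjusted p = 0.011), but not without Rk1 replicate 2 (adjusted p = 0.053). Tonsl (adjusted p = 0.062) and Rbbp4 (0.13) followed without passing. The fitted change of Rbbp4 depended on the untreated libraries, at -0.23 without untreated replicate 2 and -0.06 without untreated replicate 1.

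The regulators upstream moved in both directions, where 11.5% of all genes tested rose and 10.5% fell. Of 14 E2F and pocket protein genes, 4 rose and 2 fell, and without any 1 library 2 or 3 rose and 0 fell. Rb1, the retinoblastoma gene whose protein restrains E2F, was at 26.1 and 29.7 CPM untreated and 38.5 and 40.5 CPM with Rk1. It rose by 0.50 ± 0.08 (adjusted p = 0.0041), and the call held under every alternative run. Its relative Rbl2 rose by 0.28 ± 0.06 (adjusted p = 0.013), though not without untreated replicate 1 (adjusted p = 0.054) or Rk1 replicate 1 (0.057). E2f6, a repressor of the family, rose by 0.29 ± 0.06 (adjusted p = 0.014), though not without untreated replicate 2 (0.115) or by DESeq2 (0.056). E2f7 and E2f8, repressors that are themselves E2F targets, were the 2 that fell, and neither passed by DESeq2 or without any 1 library. Of 15 cyclins, kinases and brakes of the G1/S step, 5 fell and 1 rose, with 1 or 2 falls by DESeq2 or without any 1 library. Ccnd1, cyclin D1, fell by 0.61 ± 0.06 (adjusted p = 4.8e-04) from 147 and 135 to 94.2 and 91.2 CPM. Cdk6, its partner kinase, fell by 0.44 ± 0.10 (adjusted p = 0.022). Its call ended when untreated replicate 2 (adjusted p = 0.069) or either Rk1 library (0.056 and 0.098) was left out, and by DESeq2 (0.136). Cdkn1a, the kinase inhibitor p21, rose by 0.33 ± 0.07 (adjusted p = 0.012).

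Mitotic genes offered the nearest comparison within the cell cycle. Of 19 tested, 15 fell (78.9%), with a median of -0.22, beside 9 of 39 and -0.11 for the replication and nucleotide genes. Among all genes tested 10.5% fell. Top2a, the topoisomerase that untangles sister chromatids, fell by 0.25 ± 0.04 (adjusted p = 0.0068). Kif20a, a kinesin of cytokinesis, fell by 0.28 ± 0.04 (adjusted p = 0.0040) and Ttk, a spindle checkpoint kinase, by 0.36 ± 0.06 (adjusted p = 0.0043). Leaving out untreated replicate 2 gave 6 mitotic falls and leaving out Rk1 replicate 2 gave 7, and the difference between the lists was not tested.

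**Figure D5:**
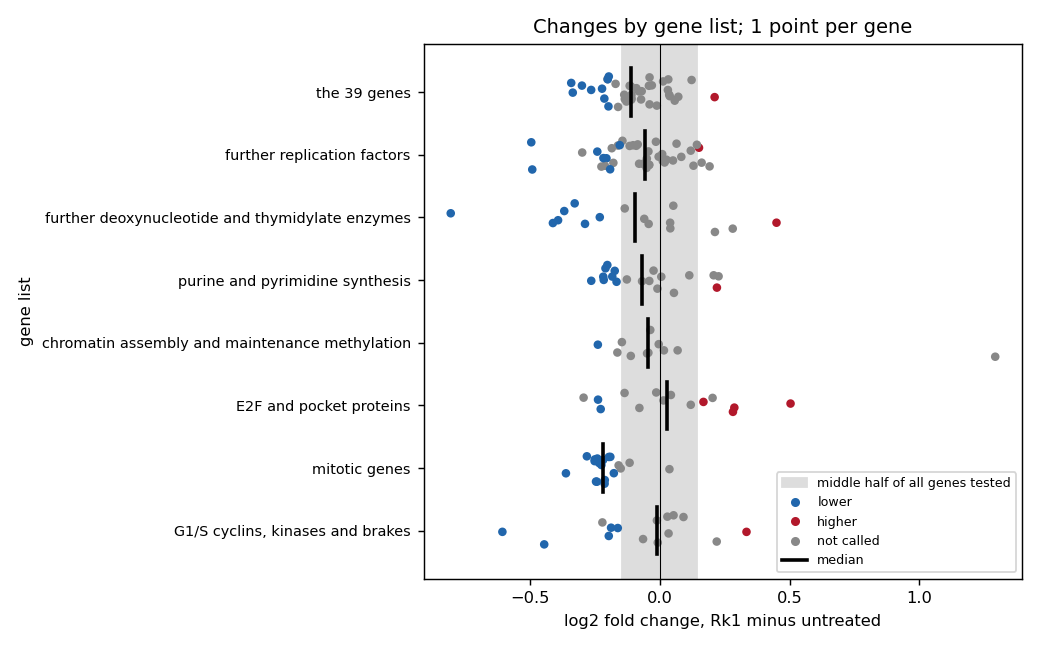
Log2 fold change, Rk1 minus untreated (x axis), of each tested gene (points) in the 39 genes and 7 further lists (y axis). Black bars are medians, the grey band holds the middle part of all genes tested, from -0.14 to 0.14, and colour marks calls. The mitotic list is shifted furthest to the left, with a median of -0.22, and most of the 39 genes lie within the band.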

How the data were processed

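Total RNA of 4 HSC-T6 libraries was sequenced, and per the submitters' processing notes HISAT2 and HTSeq were used, with versions, strand setting and read filters not given in the sources used here. Raw counts per Ensembl gene were deposited by the authors, with symbols, exon lengths and Rnor_6.0 positions per the file headers. Exon length is the other value of the deposited table. Summing exons does not separate transcripts, and reads of overlapping or near-identical genes could be divided or dropped.

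Counts were fitted whole with edgeR 4.0.16 in R 4.3.3. Genes passed filterByExpr (minimum count 10, minimum total 15), TMM factors ran from 0.994 to 1.01, and group was the only term, leaving 2 residual degrees of freedom. The quasi-likelihood F-test was two-sided, with p-values adjusted by the Benjamini-Hochberg method over 12316 genes. The SE is the log2 fold change divided by the square root of F, and intervals are 95%. Test and intervals use the total degrees of freedom (median 7.35), which add information shared across genes to the 2 residual ones. CPM per kilobase divides CPM by exon length. Neither pair of libraries is 1 library deposited again: over genes, chi-square was 4.47 (untreated) and 4.52 (Rk1) times its degrees of freedom. The 39 genes, the further lists and the rule for named genes were chosen with earlier results of these data known. That rule takes the gene with the smallest adjusted p of each role, called genes changed by at least 0.32 on the log2 scale, and 3 genes by adjusted p of each further list. The remaining called genes, Orc1, Mcm6 and others named among the 39 are given by role, and Rpa3, Rfc1, Pola2, Pold2, Ssrp1, Aprt, E2f7, E2f8, Nme2 and the stellate markers that fell were named after their values were seen. Listed symbols that matched no row, E2f1 and Ccnb2 among them, were not analysed here. Alternatives were DESeq2 1.42.0, limma-voom (limma 3.58.1), robust dispersions, RLE scaling, library totals, other filters, a replicate block, a stricter threshold and each library left out. The steps were tested on simulated data, with the same biological variation for every gene. There 50 genes each were changed 1.25-, 1.5-, 2- and 3-fold among 12316, all drawn from genes above a minimum mean count. Of those changed 1.25-fold 30% were recovered, and of those changed 1.5-fold 88%. Of 163 genes called there, 4 had not been changed. With 2711 genes called in the data, the adjusted threshold was met at a higher unadjusted p than in the simulation. The shares recovered are therefore not the power in these data. A gene not called here can still have changed by a small amount.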

Additional observations from a re-analysis of the deposited data

How the results depend on the processing

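Of the 39 genes, 8 to 12 fell and 1 rose under the other tests, scalings, filters and the replicate block, and 6 to 7 fell and 0 to 1 rose when any 1 library was left out. At an adjusted p under 0.01, 4 fell and 0 rose. Tk1, Mcm10, Cdc45 and Rfc3 were the 4 called under all 13 alternatives. The further pathway genes gave 12 falls and 1 rise by DESeq2, 6 and 1 at an adjusted p under 0.01, and 10 to 14 falls and 1 to 3 rises without any 1 library, against 23 and 3. Over all genes 2711 were called, 1712 by DESeq2, 1226 at an adjusted p under 0.01 and 1710 to 2046 without any 1 library. The lone library left in a group is taken to vary like those of the other, and leaving out a library also lowers the power of the test. The causes of the other differences were not tested.

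Fitted changes of genes that were not called lay on both sides of 0 when 1 library was left out, from -0.024 to 0.091 for Gmnn, -0.013 to 0.042 for Mcm4, -0.089 to 0.011 for Pola1, -0.20 to 0.014 for Lig1, -0.064 to 0.043 for Tyms and -0.035 to 0.11 for Dut. With a replicate block 12 of the 39 fell and 1 rose, Orc1, Orc6 and Rfc5 being added, and 3214 genes were called in all. The labels do not say that the numbers pair libraries, and the within-group differences correlated at only 0.0592 across genes. Fitted changes of Rfc1, outside the 39 and not called, ranged from -0.075 to 0.066 without any 1 library and stood at 0.0025 with library totals alone.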

Other observations

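A pair of rows outside the 39 genes had a single high library. Hprt1, a purine salvage gene that was not abundant enough to be tested, had 5 and 10 counts untreated and 5 and 195 with Rk1. Hells, a chromatin remodeller, had 28 and 36 counts untreated and 120 and 28 with Rk1 (adjusted p = 0.17). The high library was Rk1 replicate 2 for Hprt1 and Rk1 replicate 1 for Hells.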
